A study of Mus musculus with 15 samples.

Results

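The 6 activity-induced kinase feedback genes Dusp1, Dusp5, Dusp6, Sik1, Trib1 and Ier5 were described across 15 cortical libraries, 7 from Sham mice and 8 from mice exposed to high-frequency head impact (HF-HI). All listed transcripts with these gene names in the GENCODE M21 annotation were taken. Each gene had 1 listed transcript, so the set held 6 of 10370 transcripts and 6 of 7738 named genes. The genes were chosen from their higher levels in HF-HI in these same libraries. The difference between HF-HI and Sham is therefore given for them as a description, without a test.

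These genes encode brakes on intracellular signaling that are themselves switched on by the signal they restrain. Calcium entry and neurotrophin receptors activate the ERK MAP kinase cascade and CREB in neurons, and their transcription follows within minutes. Dusp1, Dusp5 and Dusp6 are dual-specificity phosphatases that remove the activating phosphates from MAP kinases, with Dusp1 and Dusp5 working in the nucleus and Dusp6 on ERK in the cytoplasm. Sik1 is a salt-inducible kinase that keeps the CREB coactivators of the CRTC family and class IIa histone deacetylases phosphorylated, Trib1 is a pseudokinase scaffold that brings the COP1 ubiquitin ligase to its substrates, and Ier5 is an immediate early protein that binds the phosphatase PP2A.

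Both groups were male C57BL/6 mice with a labelled age of 12 weeks, and the tissue was dissected cortex taken 1 month after the procedure. HF-HI mice received repeated impacts to the closed head under isoflurane on consecutive days, while Sham mice were anesthetized without impacts, so that both groups had been under anesthesia. Replicates are separate samples per the labels, and each p-value measures the spread between these samples. The deposited values are variance-stabilized (VSD), on a log2 scale, and were inverted here to normalized counts, which are reads divided by the size factor of the library.

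Regulatory letters near the start sites of these genes are shown first, because the known response of such genes to CREB and serum response factor runs through short promoter motifs. Of the 6 genes, 4 matched an entry of the RefSeq promoter table (GRCm38.p6, from 250 bases before to 50 after the start site), and Sik1 and Trib1 had no entry. Positions are counted from the RefSeq start site, and the printed stretches end before the earlier of the RefSeq and GENCODE start sites. Capitals mark the letters found by the search for the full CRE TGACGTCA, the short CRE TGACG, the AP-1 site TGANTCA, the CArG box bound by serum response factor, the EGR site GCGNGGGCG, all on both strands, and TATAA on the sense strand only. The full CRE holds the short CRE on either strand. The stretches lie at chr17:26508523-26508722 on the minus strand for Dusp1, chr19:53528895-53529094 on the plus strand for Dusp5 and chr1:155099637-155099886 on the minus strand for Ier5.
Dusp1: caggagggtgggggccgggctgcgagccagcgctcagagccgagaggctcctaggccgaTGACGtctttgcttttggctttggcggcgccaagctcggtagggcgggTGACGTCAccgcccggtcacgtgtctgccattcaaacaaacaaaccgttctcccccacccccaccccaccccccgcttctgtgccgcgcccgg
Dusp5: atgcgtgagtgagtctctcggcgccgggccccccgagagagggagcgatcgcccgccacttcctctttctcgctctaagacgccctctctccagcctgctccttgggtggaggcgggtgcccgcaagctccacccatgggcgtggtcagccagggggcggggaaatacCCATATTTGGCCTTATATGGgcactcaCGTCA
Ier5: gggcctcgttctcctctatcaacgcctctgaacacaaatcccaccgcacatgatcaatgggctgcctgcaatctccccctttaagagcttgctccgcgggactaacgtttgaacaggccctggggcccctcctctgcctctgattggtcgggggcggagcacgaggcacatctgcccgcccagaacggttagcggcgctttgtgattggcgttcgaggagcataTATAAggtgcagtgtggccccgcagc

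The Dusp1 stretch held a full CRE from -143 to -136 and a further short CRE from -191 to -187. The Dusp5 stretch held 2 CArG boxes without a gap between them, from -82 to -73 and from -72 to -63, followed by a short CRE on the antisense strand from -55 to -51. The Ier5 stretch held TATAA from -26 to -22 and none of the other motifs. No searched motif was found in the window of Dusp6, and no AP-1 or EGR site was found in any of the 4 windows. Among 32851 promoters of the same length, 1.79% held a full CRE, 20.8% a short CRE, 7.81% an AP-1 site, 1.63% a CArG box, 5.55% an EGR site and 17.5% TATAA. A match of letters is a description and was not measured as binding.

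AU-rich elements, a feature of many short-lived messages, stood out in Dusp1 alone. In the 3′ untranslated region of Dusp1, the nonamer of AU-rich elements (TTATTTATT, capitals) occurred at bases 103 to 111 and at bases 392 to 400, counted from the base after the stop codon.
Dusp1 site at 103: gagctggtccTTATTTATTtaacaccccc
Dusp1 site at 392: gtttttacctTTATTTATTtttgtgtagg

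No other of the 6 transcripts held the nonamer, whereas 9.40% of 9013 coding transcripts with a 3′ untranslated region of at least 100 bases held it, and 1.96% held it 2 or more times. Dusp1 had 5.80 ATTTA letters per kb of this region, against a median of 1.54, while Trib1 had 0 ATTTA in 2398 bases and the other 4 genes lay between 0.841 in Dusp6 and 1.48 in Sik1. All 6 genes were compact. From transcript start to end they spanned 2930 bases for Dusp1 up to 13323 for Dusp5, against a median of 34474 bases. Ier5 has a single exon, Dusp6 and Trib1 have 3, Dusp1 and Dusp5 have 4 and Sik1 has 14.

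Sham libraries held 5798810 to 10582858 reads in the listed transcripts and HF-HI libraries 3496103 to 8666307. A single read was worth between 0.679 and 1.997 normalized counts. HF-HI minus Sham in mean log2 size factor was -0.55 (p = 0.0280 by exact permutation, two-sided, n = 7 and 8), so depth and group overlap. HF-HI replicate 2 stood apart on the first principal component, at 12.6 against -3.35 to 0.721 in the other libraries. Across all 10370 transcripts, limma called 916 at an unadjusted p under 0.05, which is 8.83% of those tested, with 512 higher (4.94%) and 404 lower (3.9%) in HF-HI. None passed a Benjamini-Hochberg adjusted p under 0.1 (0%), and the smallest adjusted p was 0.206. The 11 marker genes of cortical neurons were all listed, and so were 8 of 9 striatal marker genes. Their presence is therefore not a check of the cortical label.

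The nuclear phosphatases Dusp1 and Dusp5 both had higher means in HF-HI. Dusp1 (ENSMUST00000025025, chr17:26505590-26508519, GRCm38) acts on p38 and JNK as well as ERK. Its normalized count had a lowest value of 90.4, a median of 198 and a highest value of 269 in Sham, and 209, 274 and 395 in HF-HI. The means were 198 ± 62.5 (SD, n = 7) and 280.5 ± 57.6 (SD, n = 8), a log2 ratio of 0.50. The groups overlapped, with 5 of 8 HF-HI libraries above every Sham library and HF-HI replicate 1 well above the rest.

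Dusp5 (ENSMUST00000038287, chr19:53529109-53542431) is selective for ERK. Its normalized count was 74.7 at the lowest, 101 at the median and 129 at the highest in Sham, and 119, 144 and 168 in HF-HI. The means were 103 ± 18.1 (SD, n = 7) and 144 ± 14.6 (SD, n = 8), a log2 ratio of 0.49. All HF-HI libraries but replicate 8 lay above every Sham library. The mean of Dusp5 in Sham was below 107.9, the lowest mean over all libraries of any listed transcript, so Dusp5 was listed through its level in HF-HI.

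Dusp6, the cytoplasmic ERK phosphatase (ENSMUST00000020118, chr10:99263231-99267488), had the highest counts of the set. Its normalized count was 448 at the lowest, 648 at the median and 789 at the highest in Sham, and 700.1, 798 and 937 in HF-HI. The means were 664 ± 126 (SD, n = 7) and 815 ± 92.9 (SD, n = 8), a log2 ratio of 0.30 that was the smallest of the 6. Only 4 of 8 HF-HI libraries lay above every Sham library, and Sham replicates 1, 4 and 7 lay among the HF-HI values.

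Sik1 (ENSMUST00000024839, chr17:31844250-31855804) had the largest log2 ratio of the 6. Its normalized count was 74.7 at the lowest, 113 at the median and 152 at the highest in Sham, and 145, 159 and 213 in HF-HI. The means were 114 ± 23.1 (SD, n = 7) and 168 ± 24.5 (SD, n = 8), a log2 ratio of 0.55. Of the Sham libraries only replicate 4 reached into the HF-HI values, and 5 of 8 HF-HI libraries lay above it.

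Trib1 (ENSMUST00000067543, chr15:59648350-59657099) varied widely among Sham libraries. Its normalized count was 61.8 at the lowest, 120.0 at the median and 158 at the highest in Sham, and 120.0, 164 and 197 in HF-HI. The means were 118 ± 37.0 (SD, n = 7) and 164 ± 25.9 (SD, n = 8), a log2 ratio of 0.48. The groups overlapped, with 5 of 8 HF-HI libraries above every Sham library.

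Ier5 (ENSMUST00000055322, chr1:155096361-155099636) was the only gene of the set whose groups did not overlap. Its normalized count was 450.0 at the lowest, 574 at the median and 627 at the highest in Sham, and 634, 696 and 899.9 in HF-HI. The means were 568 ± 61.1 (SD, n = 7) and 720.1 ± 90.3 (SD, n = 8), a log2 ratio of 0.34. HF-HI replicates 4 and 6 were the highest. Of all transcripts, 10 (0.0964%) had every HF-HI library above every Sham library, and nothing is read from the 1 among these 6 genes because the same contrast chose them.

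**Figure D1:**
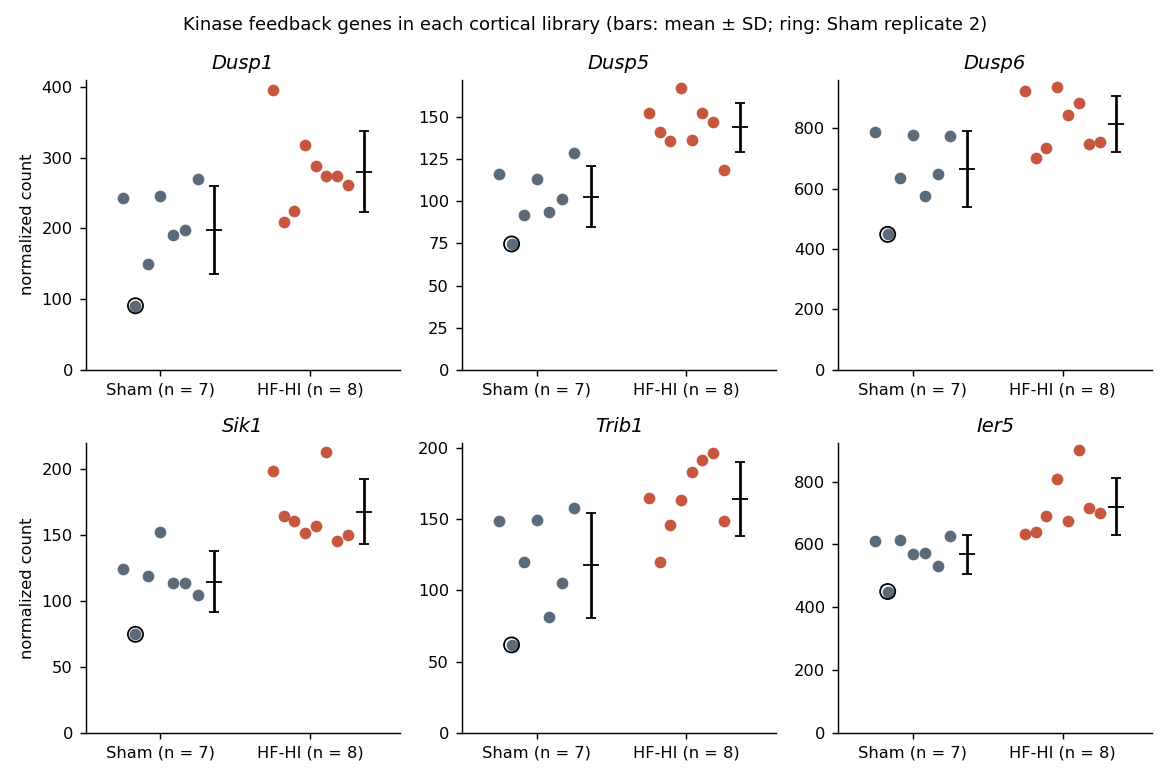
Normalized counts of the 6 kinase feedback genes (y axes, each from 0) in 7 Sham and 8 HF-HI libraries, with a point per library, the mean ± SD beside each group and a ring around Sham replicate 2. Sham replicate 2 is the lowest library in all 6 panels, and the groups separate without overlap in the Ier5 panel alone.

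Every HF-HI library exceeded the median of Sham in each of the 6 genes, 8 of 8 libraries. For Trib1, HF-HI replicate 2 at 120.01 was level with the Sham median of 119.85 to within 1 read (1.54 normalized counts). The share of all transcripts with this pattern was not counted, and nothing is read from it because the same contrast chose the genes. The median log2 ratio of the 6 was 0.48 and that over all transcripts was -0.0019, and the contrast that gives these values also chose the genes. In bulk tissue, more cells of a type and more RNA per cell cannot be told apart.

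A single Sham library set the lower end of the whole set. Sham replicate 2 had the lowest value of all 15 libraries in 6 of 6 genes, with 90.4 normalized counts of Dusp1 against 149 in the next lowest Sham library, and 61.8 of Trib1 against 81.1. It was lowest of the 15 in 631 of 10370 transcripts (6.08%). Its 7763495 reads lay within the range of the Sham libraries. Averaged over the 6 genes as standardized VSD values, Sham replicate 2 lay at -2.21 SD from the mean of the 15 libraries, and the next lowest, Sham replicate 5, at -1.03. The highest were HF-HI replicate 6 at 1.27, replicate 4 at 1.02 and replicate 1 at 1.01. Sham replicates 1, 4 and 7, at -0.065, -0.024 and 0.0148, were level with HF-HI replicate 2 at 0.0175.

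**Figure D2:**
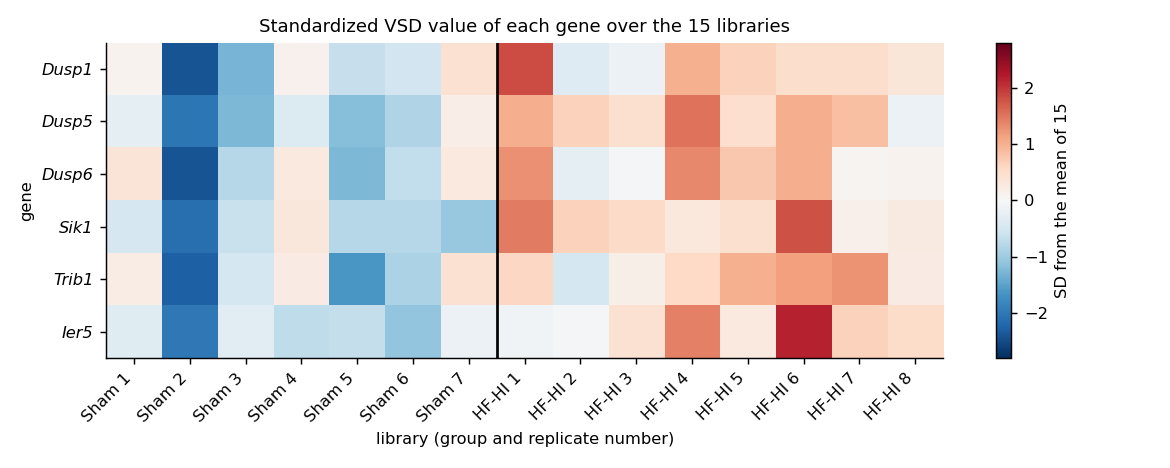
Standardized VSD value (color, in SD from the mean of 15 libraries) of the 6 genes (rows) in each library (columns, Sham left of the line, HF-HI right of it). Sham replicate 2 is the darkest blue column in every row, and HF-HI replicates 1, 4 and 6 hold the darkest red cells.

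Without Sham replicate 2, the log2 ratios were lower but of the same sign, which the choice of the genes by this contrast made likely. They were 0.38 for Dusp1, 0.42 for Dusp5, 0.22 for Dusp6, 0.47 for Sik1, 0.37 for Trib1 and 0.29 for Ier5, with a median of 0.37. Leaving out HF-HI replicate 2, the library that stood apart, gave a median of 0.51. Over all 15 libraries left out in turn, the smallest ratio was 0.22 in Dusp6 and the largest 0.63 in Sik1, without Sham replicate 4.

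**Figure D3:**
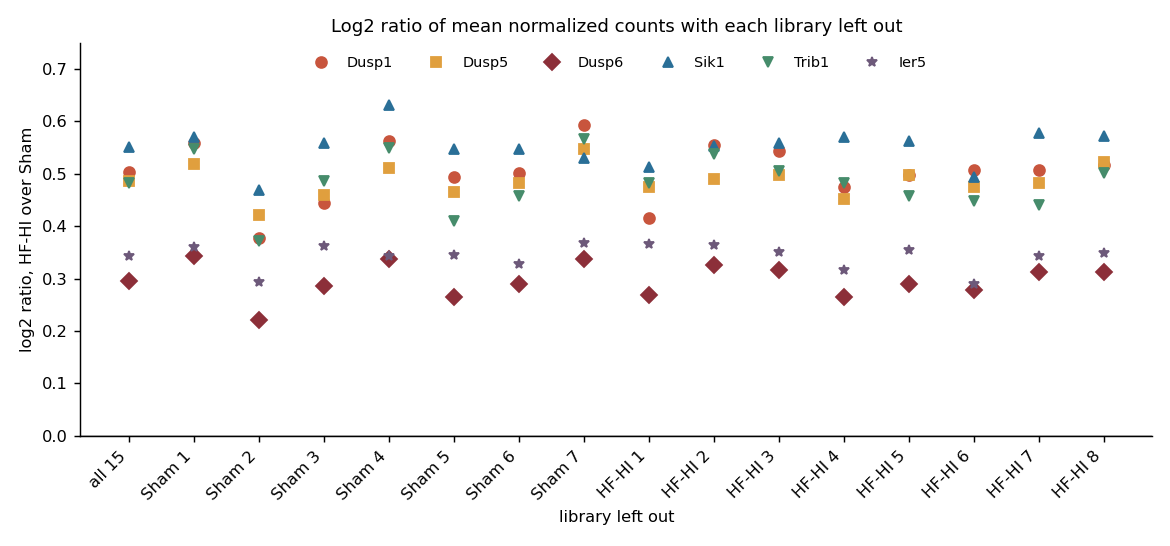
Log2 ratio of mean normalized counts, HF-HI over Sham (y axis, from 0), of each of the 6 genes with all 15 libraries and with each library left out (x axis). Every point lies above 0, and the points without Sham replicate 2 reach down to 0.22 in Dusp6.

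Depth and the markers of other cell types were set beside the levels of the 6 genes. Within groups, no gene correlated with the log2 size factor at an adjusted p under 0.05 over 12 relations. The strongest relation was that of Dusp5 in HF-HI (Pearson r = -0.72, exact permutation p = 0.0360, adjusted p = 0.432, n = 8). Its Spearman rho was -0.74 (exact permutation p = 0.0458, adjusted p = 0.550, n = 8). Without the 2 libraries farthest from the median depth, r was -0.54. With log2 size factor as a covariate, the median log2 ratio of the 6 genes was 0.46. Of 15 transcripts of 8 striatal marker genes, 3 were called lower by limma at the unadjusted threshold (Pde10a, Ppp1r1b and Penk) and none higher, which is 20% beside 3.9% of all transcripts called lower and 8.83% in either direction. Other transcripts of Pde10a and Ppp1r1b were not called, with log2 ratios from -0.24 to 0.37. Summed over the list, Sham libraries held 7110 to 10830.0 normalized counts and HF-HI libraries 5063 to 10294. These ranges overlap and were not tested, and striatal markers were present in every library of cortex. With the log2 of that sum as a covariate, an alternative chosen after seeing the data, the median log2 ratio of the 6 genes was 0.41. The ratio was lower than without the covariate in Dusp1 (0.35), Dusp5 (0.43) and Dusp6 (0.27). It was higher in Sik1 (0.57), Trib1 (0.54) and Ier5 (0.40).

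The other marker lists were counted beside the same 8.83%. Of 17 neuronal transcripts, 2 (Snap25 and Rorb) were higher (11.8%), of 12 astrocyte transcripts 1 (Aldoc) was lower (8.33%) and of 7 microglial transcripts 1 (P2ry12) was lower (14.3%), while none of the 20 oligodendrocyte, 9 endothelial and mural, 5 choroid plexus, 4 hippocampal and 4 blood transcripts was called. Each of these calls is of 1 transcript. The other transcripts of Snap25 (log2 ratios 0.27 and 0.32), Rorb (0.0030) and Aldoc (-0.08) were not called. Summed microglial markers came to between 2131 and 2268 normalized counts in Sham libraries. In HF-HI libraries they came to between 1965 and 2310.3. The part of these cell types in the levels of the 6 genes was not tested.

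The levels of the 6 genes could be ordered per length. In mean normalized counts per kb of transcript, Dusp6 had 266, Ier5 198, Dusp1 122, Dusp5 50.5, Trib1 32.9 and Sik1 31.6, against a median of 93.7 over all transcripts. Dusp6 lay above Ier5 in 15 of 15 libraries, Ier5 above Dusp1 in 14, Dusp1 above Dusp5 in 15 and Dusp5 above Trib1 in 15. Trib1 lay above Sik1 in 8 of 15 libraries, so that these neighbors did not differ beyond their spread. The order was the same in the group means of Sham and of HF-HI, where Trib1 had 27.2 ± 8.54 and 38.0 ± 5.98 and Sik1 had 25.3 ± 5.11 and 37.1 ± 5.41 per kb (SD, n = 7 and 8).

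The genes also differed in how much they varied between animals of the same group. The coefficient of variation beyond counting error was 30.9% for Dusp1 and 30.3% for Trib1 in Sham, against a median of 8.99% over all transcripts. It was 18.7% for Dusp6, 18.3% for Sik1, 15.1% for Dusp5 and 10.1% for Ier5. In HF-HI it ranged from 3.93% for Dusp5 to 19.4% for Dusp1, against a median of 10.4% over all transcripts. It was larger in Sham than in HF-HI for 5 of the 6 genes, and Ier5 had 10.1% in Sham and 11.8% in HF-HI. The Sham values rested in part on Sham replicate 2. Without it, an alternative chosen after seeing the data, they were 19.7% for Dusp1, 22.4% for Trib1, 12.6% for Dusp6, 10.2% for Dusp5, 10.9% for Sik1 and 4.67% for Ier5. Sik1 was then below its HF-HI value of 11.8%, Dusp1 was level with its 19.4%, and the difference between the groups was not tested.

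The genes were chosen by the difference between groups, and variation among libraries of the same group was shared between them. The choice and the Sham correlations are not independent. A Sham library low in all 6 genes, as Sham replicate 2 was, lowers the Sham means and raises the Sham correlations. In Sham, all 15 pairs of genes correlated positively, with Pearson r from 0.59 to 0.97 and a median of 0.80. Over 30 relations in both groups, 6 Sham pairs passed an adjusted p under 0.05 (exact permutation of pairings, two-sided, Benjamini-Hochberg). They joined Dusp1, Dusp5, Dusp6 and Trib1 with each other, all 6 pairs of these 4 genes. Dusp1 and Dusp5 had r = 0.97 (exact permutation p = 3.97e-04, adjusted p = 0.0119, n = 7) and Spearman rho 0.96 (exact permutation p = 0.00278, adjusted p = 0.0417). Dusp6 and Trib1 had r = 0.97 (exact permutation p = 0.00238, adjusted p = 0.0188, n = 7) and rho 0.82 (exact permutation p = 0.0341, adjusted p = 0.146), so that pair passed by Pearson's r alone.

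In HF-HI, all 15 pairs were again positive but weaker in value, with r from 0.021 to 0.84 and a median of 0.43. The pair Dusp1 and Dusp6 alone passed, with r = 0.84 (exact permutation p = 0.00233, adjusted p = 0.0188, n = 8) and rho 0.93 (exact permutation p = 0.00223, adjusted p = 0.0417). Without the 2 libraries farthest from the median of Dusp1, r for this pair was 0.81. Dusp1 and Ier5 had the lowest correlation in HF-HI, at r = 0.021 (exact permutation p = 0.956, adjusted p = 0.956, n = 8) and rho 0.048 (exact permutation p = 0.935, adjusted p = 0.935). The difference between the groups in these correlations was not tested.

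**Figure D4:**
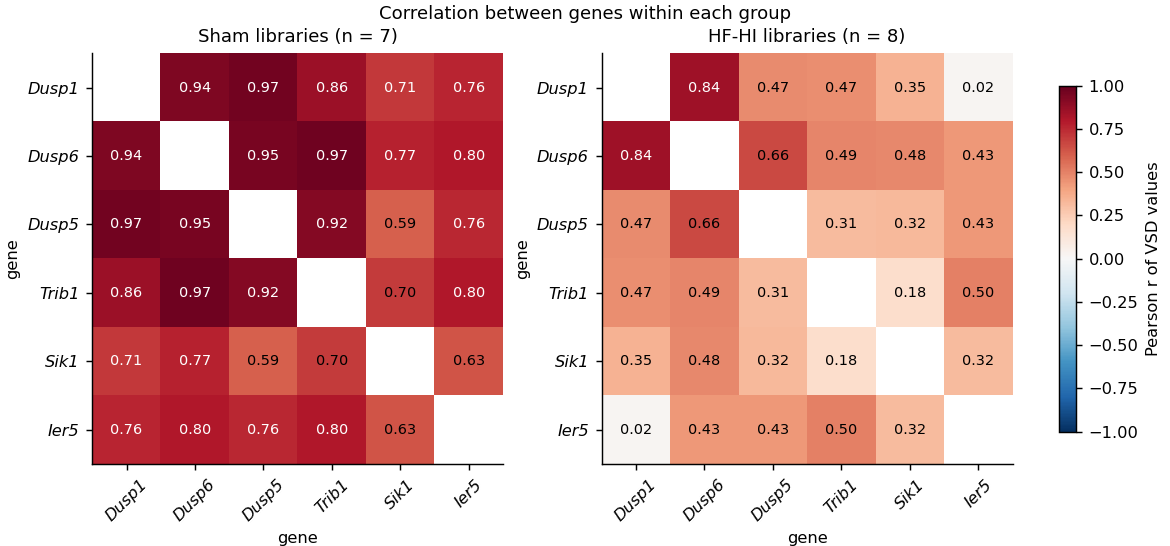
Pearson r between the VSD values of each pair of the 6 genes (rows and columns) within the 7 Sham libraries (left) and the 8 HF-HI libraries (right), colored from -1 to 1. The block of Dusp1, Dusp6, Dusp5 and Trib1 holds r of 0.86 or more in Sham, and Dusp1 with Dusp6 is the highest pair in HF-HI at 0.84.

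The Sham correlations rested in part on Sham replicate 2. Without it, an alternative chosen after seeing the data, r in Sham ranged from -0.21 to 0.96 with a median of 0.40, and 14 of 15 pairs remained positive. None of the 30 relations passed, while 5 had an unadjusted p under 0.05 (smallest adjusted p = 0.0699, exact permutation, n = 6 and 8). The HF-HI pair Dusp1 with Dusp6 holds no Sham library, so its r and unadjusted p were unchanged and only its adjustment differed. Without the 2 libraries farthest from the median of the first gene of each pair, r lay between -0.15 and 0.96 for Sham pairs and between -0.84 and 0.81 for HF-HI pairs. Dusp1 with Dusp5 kept r = 0.94 in Sham and Dusp6 with Trib1 kept 0.96, whereas Dusp1 with Ier5 had -0.15.

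Over both groups, the deviations of each library from its group mean placed Dusp1 and Dusp6 next to each other. Among all 10369 other transcripts, the one most like Dusp1 was Dusp6 and the one most like Dusp6 was Dusp1 (r = 0.90, 15 libraries). Dusp5 ranked 6 for Dusp1 and 3 for Dusp6, and Trib1 ranked 19 and 7. Sik1 ranked 55 for Dusp6 and 169 for Dusp1. For Dusp1 and Dusp6, Ier5 was the least alike of the set, at rank 876 (r = 0.38) and rank 106. For Dusp5 and Trib1, Sik1 was less alike (ranks 306 and 296) than Ier5 (ranks 132 and 82). These ranks are descriptions over 15 libraries that differ in depth. They include Sham replicate 2, the lowest library in every gene of the set, and were not computed without it.

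The 5 genes outside the set whose deviations were most like the mean of the 6 were Fos (r = 0.88), Nr4a1 (0.87), Arc (0.86), Tiparp (0.84) and Gfra1 (0.84), over 15 libraries. The first 4 belong to a list of other activity-induced genes: Fos is a subunit of AP-1, Nr4a1 an orphan nuclear receptor, Arc a synaptic effector and Tiparp a mono-ADP-ribosyltransferase. Of the 32 listed transcripts of that list, 12 stood among the 100 most alike of 10364 transcripts, and their median r was 0.46 against -0.0024 over all. Without Sham replicate 2 their median r was 0.27 and 7 stood among the first 100. Fos then had r = 0.73 (rank 26), Nr4a1 0.75 (rank 18), Arc 0.72 (rank 29), Tiparp 0.76 (rank 10) and Gfra1 0.64 (rank 82). That these 5 genes came first thus rested on Sham replicate 2. A second Arc transcript, ENSMUST00000110009, had r = 0.71 (rank 25) over 15 libraries and 0.41 (rank 787) without Sham replicate 2. Gfra1, a receptor subunit for the trophic factor GDNF, followed the 6 genes within each group (r = 0.89 in Sham and 0.70 in HF-HI). Its mean was lower in HF-HI, at 101 ± 10.5 normalized counts against 146 ± 35.5 in Sham (SD, n = 8 and 7). That HF-HI mean was below 107.9, the lowest mean over all libraries of any listed transcript. Gfra1 was therefore listed through its level in Sham.

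The pathway around these genes was counted next, with the 6 genes left out. Of 153 listed transcripts in 7 lists, limma at the unadjusted threshold called 27 higher and 5 lower in HF-HI, which is 20.9% against 8.83% of all transcripts, and none passed the adjusted threshold. The list of other activity-induced genes held 15 of the 27. In the remaining 6 lists, 12 of 121 transcripts were higher and 5 lower (14.0%). Of the 27, 2 had a Sham mean below the lowest listed mean and were listed through their level in HF-HI. The lists were compared with all transcripts by these counts alone.

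Among other dual-specificity phosphatases, 12 transcripts of 8 genes were listed, with a median log2 ratio of 0.03. The 2 called (16.7%) were both of Dusp26, in opposite directions. ENSMUST00000036631 of Dusp26 averaged 298 ± 51.9 normalized counts over Sham libraries and 235 ± 51.9 over HF-HI libraries, and ENSMUST00000161713 had 103 ± 35.2 and 145 ± 36.03 (limma adjusted p = 0.514 and 0.527). Reads shared by transcripts of a gene were divided by estimation, so opposite changes of 2 transcripts of the same gene are uncertain. The Sham mean of ENSMUST00000161713 was below the lowest listed mean of 107.9, so this transcript was listed through its level in HF-HI. Dusp7, a further cytoplasmic ERK phosphatase of the Dusp6 class, had a log2 ratio of -0.02, and Dusp8 and Dusp16, which act on JNK and p38, had 0.04 and -0.04.

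Of 28 transcripts of inhibitors acting on Ras and on receptors, 2 were called higher (7.14%), beside 8.83% of all transcripts called in either direction. Cbl, a ubiquitin ligase for activated receptor kinases, averaged 404 ± 38.5 normalized counts over Sham libraries and 449.9 ± 15.1 over HF-HI libraries (limma adjusted p = 0.408), and Socs7, of the suppressors of cytokine signaling, had 1141 ± 79.2 and 1213 ± 45.1 (limma adjusted p = 0.561). The median log2 ratio of the list was 0.05. In the MAP kinase cascade, 7 of 49 transcripts were called higher and 3 lower (20.4%), with a median log2 ratio of 0.01. Sos1, the exchange factor that loads Ras, rose from 677 ± 38.1 to 744 ± 41.6 normalized counts at the unadjusted threshold (limma adjusted p = 0.404). Mknk2, a kinase that MAP kinases bind and activate, rose from 176 ± 14.9 to 203 ± 19.5 (limma adjusted p = 0.470). A transcript of Mapk9 (JNK2), ENSMUST00000020634, fell from 1108 ± 79.4 to 930.4 ± 91.6 at that threshold (limma adjusted p = 0.287), while a second, ENSMUST00000102778, was called higher, at 360.1 ± 66.5 and 454 ± 88.7 (limma adjusted p = 0.514). Of Mapk6, an atypical MAP kinase, ENSMUST00000049355 fell from 414 ± 48.6 to 336 ± 58.8 (limma adjusted p = 0.422), while ENSMUST00000168937 was not called, at 199.7 ± 15.4 and 238 ± 55.9 (limma adjusted p = 0.610). Nras, a Ras GTPase, fell from 438 ± 22.9 to 403 ± 22.8 (limma adjusted p = 0.479).

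The partners of the other 3 genes were counted beside the same 8.83% of all transcripts called in either direction. Of 15 transcripts of SIK kinases, CRTC coactivators and class IIa histone deacetylases, 1 was called (6.67%), the Sik2 transcript ENSMUST00000176824 at 117 ± 33.4 normalized counts over Sham libraries and 169 ± 54.8 over HF-HI libraries (limma adjusted p = 0.527), while ENSMUST00000176663 of Sik2 had a log2 ratio of -0.19 and was not called. None of the 7 transcripts of Tribbles partners was called. Of 10 transcripts of Ier relatives, PP2A subunits and HSF1, 2 were called (20%). The catalytic subunit Ppp2cb was called higher, at 968 ± 45.4 and 1025 ± 49.6, and the catalytic subunit Ppp2ca lower, at 2895 ± 89.8 and 2756 ± 101 (limma adjusted p = 0.561 and 0.506).

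**Figure D5:**
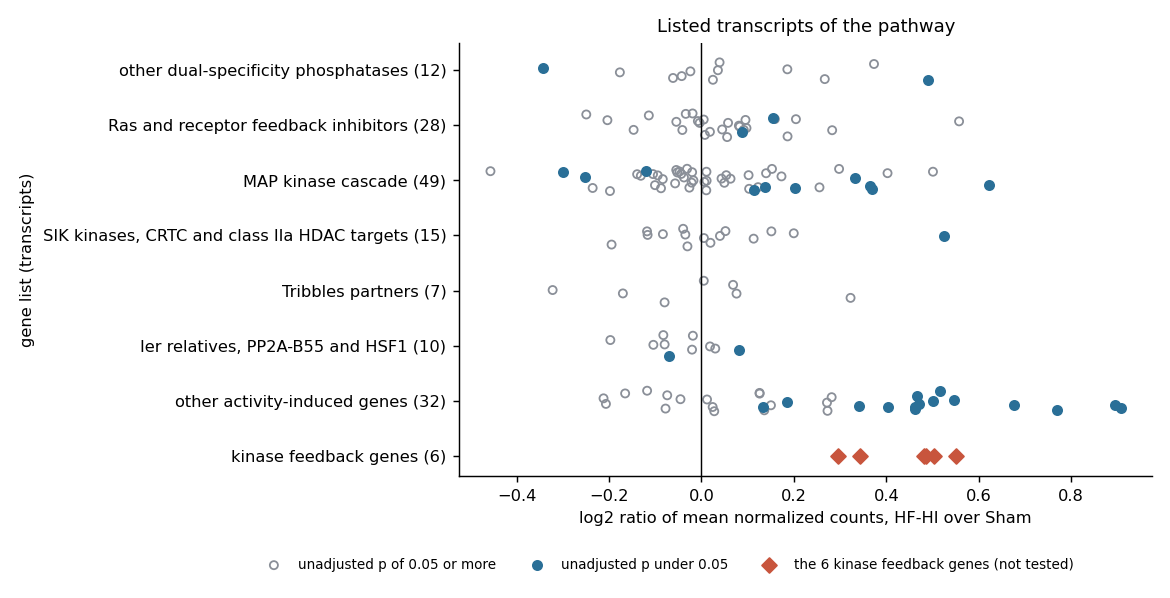
Log2 ratio of mean normalized counts, HF-HI over Sham (x axis), of every listed transcript of the 7 pathway lists (rows, with the number of transcripts), filled where the unadjusted limma p was under 0.05, with the 6 kinase feedback genes as diamonds. The diamonds lie from 0.30 to 0.55, and 15 of 32 transcripts of the other activity-induced genes are filled, all of them above 0.

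Other activity-induced genes were the list with the largest share of calls, 15 of 32 transcripts higher and 0 lower (46.9%), with a median log2 ratio of 0.23. These counts come from the same libraries and contrast that chose the 6 genes, and genes of this kind were known to be higher when the set was chosen. Nr4a3, an orphan nuclear receptor, averaged 157 ± 38.0 normalized counts over Sham libraries and 291 ± 65.8 over HF-HI libraries (log2 ratio 0.89, limma adjusted p = 0.206). The Arc transcript ENSMUST00000110009 had 603 ± 200 and 1132 ± 225 (0.91, limma adjusted p = 0.214), and Arl4d, a small GTPase of the ARF family, had 149 ± 30.01 and 206 ± 24.7 (0.47, limma adjusted p = 0.293). Each of these 3 exceeded its Sham median in 8 of 8 HF-HI libraries, a pattern whose share over all transcripts was not counted. The log2 ratios of the 6 kinase feedback genes, from 0.30 to 0.55, lay below those of Nr4a3 and Arc.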

How the data were processed

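Ribosomal RNA was depleted by the authors before stranded library preparation. The authors mapped reads to mm10 with STAR, estimated counts for each transcript with eXpress, and applied the size factors and variance-stabilizing transformation of DESeq2, with outliers removed by Cook's distance. The versions of STAR and eXpress and the annotation release are not given in the sources used here. The authors deposited values on the log2 scale (VSD), in 1 column per library for 10370 transcripts. This scale compresses low counts: going from 100 normalized counts to 2 times as many adds 0.195, and from 1000 adds 0.531.

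All libraries share the VSD of a count of 0. Inversion gave whole reads for 100% of values in each library (tolerance 0.1 reads) and thereby size factors. The lowest mean was 107.9 normalized counts, so rarer transcripts were not analysed here. Of the transcripts, 10238 matched GENCODE M21 and 132 did not. A read total covers the listed transcripts only. Sampling noise alone was exceeded between all libraries of the same group, with the smallest chi-square at 9.55 per degree of freedom.

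The test was limma 3.58.1 (R 4.3.3) on VSD values. Group was its only term, eBayes had a trend, tests were two-sided, and p-values were adjusted over all transcripts by Benjamini-Hochberg, with 0.1 as the threshold as in the study. Calls at an unadjusted p under 0.05 were counted as well. The code was checked on simulated counts. Log2 ratios are of group means of normalized counts. Correlations within groups used exact permutations of pairings, adjusted over 30 relations. Named genes were the 6 genes, up to 3 transcripts per list and direction with the smallest unadjusted p under 0.05, and the 5 genes most like the 6 within groups. A further item that this rule names is not reported here. The genes and lists were chosen with earlier results of these data known. Alternatives changed the prior, scaling, filter, value scale, covariates and block, and left out each library in turn.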

Additional observations from a re-analysis of the deposited data

How the results depend on the processing

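Every alternative tried kept the 6 log2 ratios above 0. The same contrast chose the genes, so a kept sign was close to fixed in advance and nothing is read from it. Their median, 0.48 in the main analysis, lay between 0.37 and 0.54 with each library left out in turn, lowest without Sham replicate 2, and between 0.41 and 0.51 under the other 9 alternatives, among them 0.50 after quantile normalization, 0.46 by voom on the recovered reads and 0.51 with the replicate block. Pathway calls, 32 in the main analysis, lay between 27 and 36 with each library left out and between 25 and 32 otherwise, with 32 under the replicate block. Over all transcripts, 916 calls became 533 with log2 size factor as a covariate, 891 with the replicate block, and 748 to 987 with each library left out. The share of these calls that were higher was 52.0% with libraries centered on their medians, against 55.9% in the main analysis. Same-numbered Sham and HF-HI libraries deviated together by correlations of -0.138 to 0.0905, so the numbers were not taken as pairs. Of the 7 correlations between members that passed, 0 passed without the 2 libraries farthest from the median of the first gene. There n is 5 or 6, and the smallest adjusted p was 0.25 by exact permutation. With 5 libraries a single pair cannot reach an adjusted p under 0.05 over 30 relations, so this count cannot show that correlations were lost. Without Sham replicate 2, 0 passed either, though the HF-HI pair that had passed holds no Sham library and kept its r. With a pseudocount of 1, 6 passed. Precision at this depth is limited for Dusp5, Sik1 and Trib1, which had 67 to 224 reads in a library.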
